A study of Mus musculus with 2 samples.

Results

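The endothelial cells described here are the capillary cells of hind limb muscle, profiled cell by cell with droplet RNA sequencing in mdx mice, a model of Duchenne muscular dystrophy. A cell was taken as capillary when it met the following conditions on its unique molecular identifiers (UMIs, which tag RNA molecules so that amplified copies count as 1). It had at least 500 genes, at least 3 of 6 endothelial genes (Pecam1, Cdh5, Kdr, Flt1, Cldn5 and Esam) and 0 UMIs of Ptprc, Pdgfra, Prox1 and Myh11. It had at least 2 of 6 capillary genes (Gpihbp1, Car4, Timp4, Aqp7, Rbp7 and Clic5). It had fewer than 2 of 4 venous genes (Selp, Vwf, Ackr1 and Lrg1) and fewer than 2 of 4 arterial genes (Cytl1, Sema3g, Gja5 and Bmx). The rule found 334 cells of 8010 barcodes, 252 in the Ctrl library and 82 in the dKO library.

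The Ctrl mice carried Pax7CreERT2/R26YFP, Yy1+/+ and mdx, and the dKO mice carried Pax7CreERT2/R26YFP, Yy1f/f and mdx, so both groups lacked dystrophin. Hind limb muscle was taken about a month after tamoxifen, and Cre was driven by Pax7, a gene of muscle stem cells (MuSCs), so that the deletion of Yy1 was directed to MuSCs and not to endothelial cells. Each group was 1 library of pooled mice, sorted for live cells after red blood cell lysis. No difference below has a replicate check, no test was run, and every interval is a 95% interval that covers counting error only.

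Capillaries are the narrowest vessels, where oxygen, nutrients and hormones pass between blood and myofibres through a single layer of endothelial cells. In muscle, these cells anchor lipoprotein lipase on their luminal face through GPIHBP1 and take up the freed fatty acids with CD36 and FABP4. They also respond to interferons and other inflammatory signals, present peptides on MHC class I and, when vessels grow, form tip cells under the control of VEGF and Notch.

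Of 4335 Ctrl and 3329 dKO cells with at least 500 genes, 637 and 269 had 3 endothelial genes, and 198 and 90 of these were set aside for a UMI of Ptprc, Pdgfra, Prox1 or Myh11. The remaining 439 and 179 endothelial cells included 110 and 48 venous cells, 37 and 21 arterial cells, 34 and 19 cells with none of these profiles, and 6 and 9 cells with venous and arterial genes together. Capillary cells held fewer UMIs than venous cells, with a median of 4141.5 in Ctrl and 2974 in dKO against 6623 and 7563.5. Summed over cells, the capillary profile rested on 1368865 UMIs in Ctrl and 333909 in dKO. The libraries shared 7 barcodes, 0 of them among capillary cells.

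The label was checked on markers in each endothelial class, with levels in CPM, the UMIs of a gene scaled to a fixed total over the summed cells of the class. Gpihbp1, which lies at chromosome 15, 75596628 to 75599481 (GRCm38), was at 1220 CPM in Ctrl and 1180 CPM in dKO capillary cells. It was at 218 and 182 CPM in venous cells and at 79.6 and 17.5 CPM in arterial cells. Car4, a carbonic anhydrase on the capillary surface, was at 156 and 126 CPM in capillary cells and at 6.99 and 8.41 CPM in venous cells, with 0 UMIs in arterial cells. All 6 capillary genes of the rule were lower in dKO, where 43% of the genes counted below were higher. Their sum was at a dKO over Ctrl ratio of 0.894 (0.837 to 0.955). Aqp7 was at 180 CPM in Ctrl and 102 CPM in dKO capillary cells, and Timp4 at 659 and 539 CPM. Since these 6 genes chose the cells, their levels are a description of the rule.

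Of the capillary genes outside the rule, Cd36 stood at 2666 CPM in Ctrl and 2438 CPM in dKO capillary cells, against 1201 and 1191 CPM in venous and 540 and 664 CPM in arterial cells. Fabp4 was the most abundant of the lipid genes, at 16332 CPM in Ctrl and 16636 CPM in dKO capillary cells, with 11690 and 11480 CPM in venous cells. Cd300lg, a receptor of capillary endothelium, was at 484 and 467 CPM in capillary cells, 181 and 140 CPM in venous cells and 17.0 and 17.5 CPM in arterial cells. Ly6c1 was at 2188 and 2606 CPM in capillary cells and at 2387 and 2315 CPM in arterial cells, and Meox2 at 174 and 204 CPM in capillary and 150 and 146 CPM in venous cells. The 8 venous and arterial genes were limited by the rule, so their low levels are no finding. Ackr1, Cytl1 and Bmx had 0 UMIs in the capillary cells of both libraries. Vwf was at 60.6 CPM in Ctrl and 41.9 CPM in dKO, with a UMI in 23.8% and 10.98% of capillary cells. Selp was at 4.38 and 38.9 CPM, Lrg1 at 26.3 and 50.9 CPM, Sema3g at 24.8 and 24.0 CPM and Gja5 at 11.7 and 2.99 CPM.

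**Figure D1:**
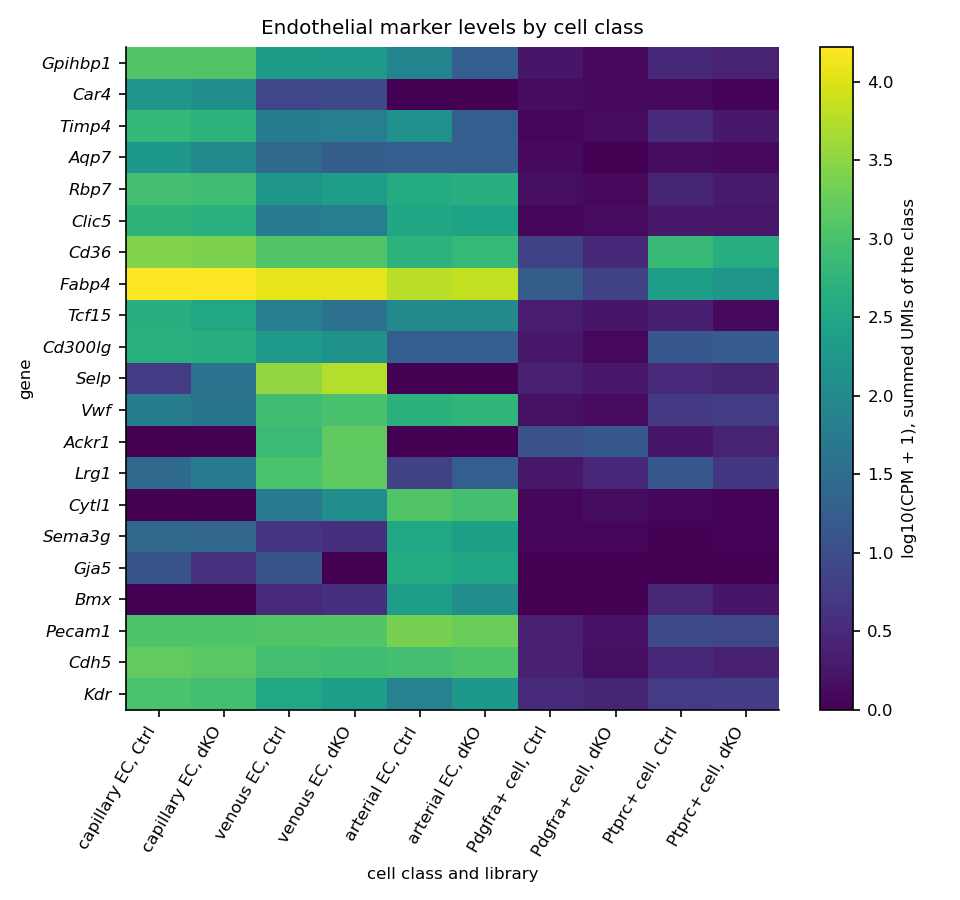
Level of 21 genes, as log10(CPM + 1) of summed UMIs, in capillary, venous and arterial endothelial cells (EC) and, for reference, in cells with Pdgfra or Ptprc UMIs, for the Ctrl and dKO libraries. Gpihbp1, Car4 and Timp4 are brightest in the capillary columns, where the rule limited the venous and arterial genes and Ackr1, Cytl1 and Bmx are at 0, while Vwf is at 60.6 and 41.9 CPM.

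The cells differed in how many of the 6 capillary genes they showed. Exactly 2 of the genes were found in 43 Ctrl and 14 dKO cells, the members just inside the rule, which held 1789 and 1471 CPM of Cd36. All 6 were found in 36 Ctrl and 4 dKO cells, with 3054 and 4180 CPM of Cd36. Their median depth was 2344 UMIs in Ctrl and 4034 UMIs in dKO with exactly 2 of the genes, and 8266 and 6899.5 UMIs with all 6. Just outside the rule, 24 Ctrl and 13 dKO endothelial cells had 1 capillary gene and 1553 and 2765 CPM of Cd36.

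Capillary cells made up a smaller share of the dKO library than of the Ctrl library. In Ctrl they were 5.81% of 4335 kept cells, with an exact binomial interval of 5.14 to 6.55. In dKO they were 2.46% of 3329 kept cells, with an interval of 1.96 to 3.05. The difference was -3.35 percentage points (Newcombe interval -4.23 to -2.47). Venous and arterial cells also had lower shares in dKO, with venous cells at 2.54% in Ctrl and 1.44% in dKO and arterial cells at 0.854% and 0.631%, where the interval of the arterial difference (-0.610 to 0.183 points) includes 0. Cells with venous and arterial genes together were 0.138% in Ctrl and 0.270% in dKO. A share depends on all other cells of a library, so it was also taken over cells with 0 Ptprc UMIs, which lack this marker of blood-derived cells. There it was 10.2% in Ctrl and 4.19% in dKO.

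Within the endothelial cells alone, the capillary share was 57.4% in Ctrl (252 of 439, 52.6 to 62.1) and 45.8% in dKO (82 of 179, 38.4 to 53.4). This is a difference of -11.6 points (-20.1 to -2.92). The venous share was 25.1% and 26.8%, and the arterial share 8.43% and 11.7%. Cells with venous and arterial genes together were 1.37% (6 cells) and 5.03% (9 cells), a difference of 3.66 points (0.819 to 7.98). Depth moved with this difference, as given above. With shallower cells left out and the others thinned to 2000 UMIs, the capillary share of all cells was 6.12% in Ctrl and 2.05% in dKO. This step left out 35 of 252 Ctrl and 20 of 82 dKO capillary cells, a larger part of dKO. The share within endothelial cells was not taken in thinned cells. With 1 pooled library in each group, a change in the muscle and a change in how cells came out of the tissue cannot be told apart.

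**Figure D2:**
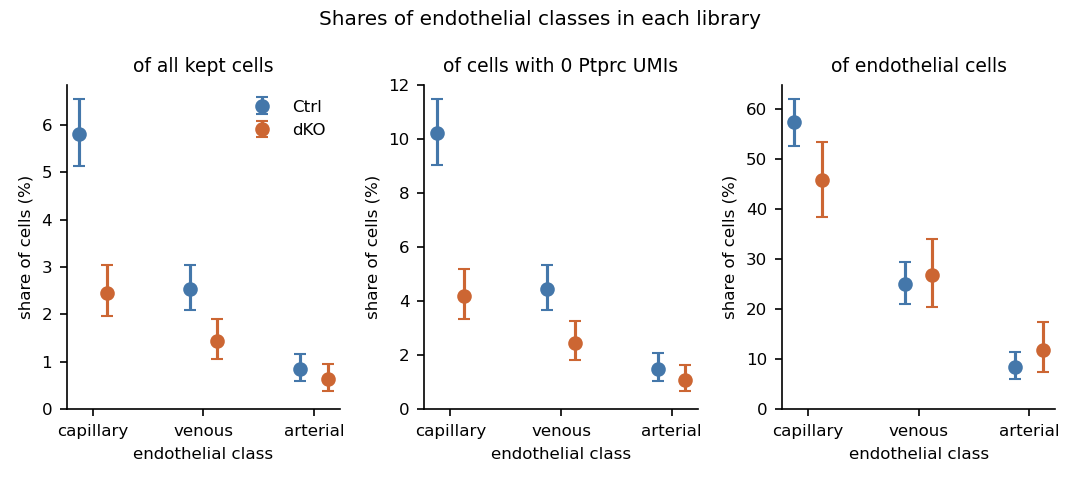
Share of capillary, venous and arterial endothelial cells in the Ctrl and dKO libraries, in percent of all kept cells (left), of cells with 0 Ptprc UMIs (middle) and of endothelial cells (right), with exact binomial 95% intervals. The capillary share is 5.81% in Ctrl and 2.46% in dKO of all kept cells, and 57.4% and 45.8% of endothelial cells.

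Yy1 itself, on chromosome 12 from 108792973 to 108820148, was at 261 CPM in Ctrl (357 UMIs) and 234 CPM in dKO capillary cells (78 UMIs). The log2 ratio of dKO over Ctrl was -0.16 (-0.53 to 0.20). Venous cells had 255 and 258 CPM of Yy1. UMIs of the transcript do not show whether an exon is deleted, so the values check only that Yy1 RNA was present in the capillary cells of both libraries.

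Few genes passed 2-fold between the libraries. Of 2812 genes with at least 100 UMIs over the capillary cells of both, 23 (0.818%) were 2-fold or more higher in dKO and 49 (1.74%) were 2-fold or more lower, 72 (2.56%) in all. The median log2 ratio was -0.05, and 43% of the genes had a ratio above 1. The 23 higher genes included the interferon genes Ifit1 and Ifit3, the chemokine genes Cxcl10 and Cxcl2 and the stress genes Mt1, Mt2 and Hmox1. Leaving out, gene by gene, the cell of each library with most of its UMIs kept 13 of them and all 49 of the lower genes past 2-fold. In cells thinned to 2000 UMIs, 3 genes were past 2-fold higher and 9 lower, and without the highest doublet scores 7 were higher. Fewer genes keep 100 UMIs in these settings, so these counts cannot be read against the shares above. The dKO sum was the smaller one, and the 15 lowest genes had 2 to 21 dKO UMIs each. The filter of 100 UMIs took both libraries together. Higher genes with fewer in Ctrl, such as Cxcl10 (40), Mt2 (49), Ifit3 (65) and Ifit1 (72), reached it only with their dKO UMIs. The place of such genes among the 23 is thus partly set by the filter.

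**Figure D3:**
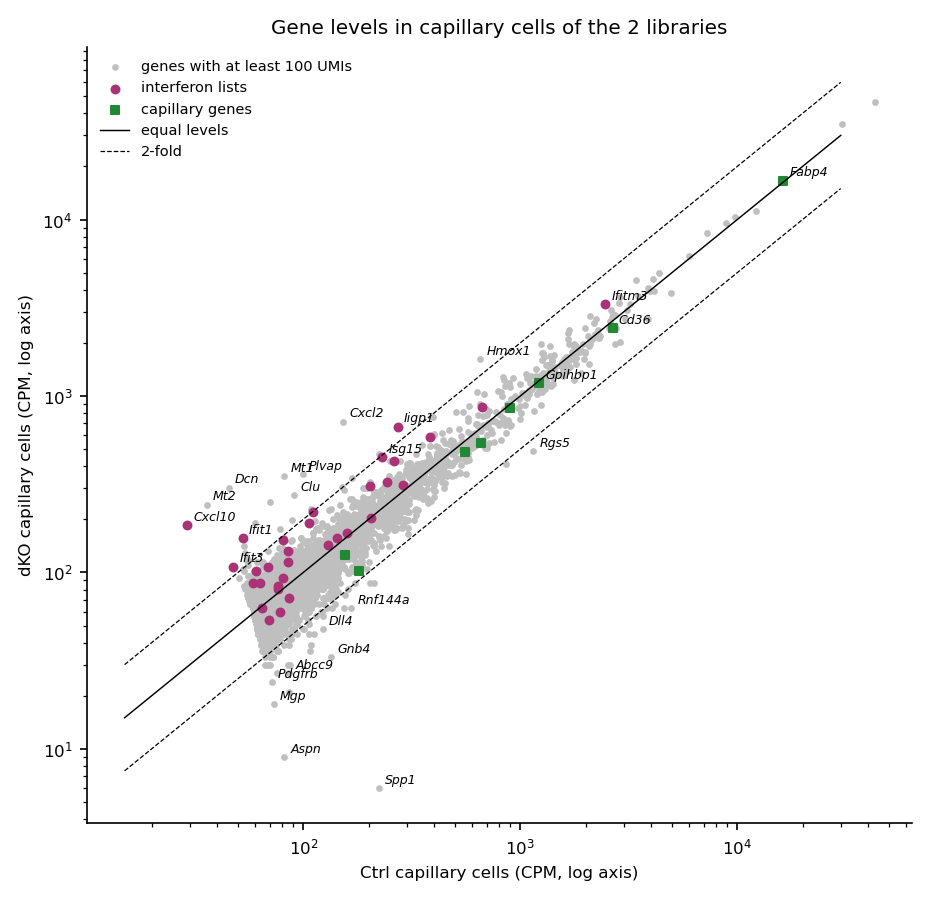
Level of each gene with at least 100 UMIs in the capillary cells of the Ctrl library (horizontal) and the dKO library (vertical), in CPM on log axes, with lines for equal levels and for 2-fold differences. Interferon genes such as Ifit1, Isg15 and Iigp1 lie above the line of equal levels. Fabp4, Cd36 and Gpihbp1 lie close to it, while the capillary gene Aqp7 lies below it, at 180 and 102 CPM.

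Interferon genes were higher in dKO as a group. The type I interferon list holds 32 genes, 23 of which had 100 UMIs. The whole list summed to 5922 CPM in Ctrl and 8311 CPM in dKO, a ratio of 1.40 (1.34 to 1.47). A ratio above 1 was found for 19 of the 23 and a ratio under 1 for 4, beside the 43% of all genes above 1. The median log2 ratio of the list was 0.44, against -0.05 for all genes, and 2 members passed 2-fold. These were Ifit1 and Ifit3, whose 72 and 65 Ctrl UMIs reached the filter of 100 only with their dKO UMIs. Their passing is thus partly set by the filter, while the sum of the whole list does not depend on it. The list's ratio was 1.40 without the cell of each library that held most of its UMIs.

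Ifitm3, which encodes a membrane protein that blocks virus entry, was the most abundant, at 2455 CPM in Ctrl (3361 UMIs) and 3336 CPM in dKO (1114 UMIs), a log2 ratio of 0.44 (0.34 to 0.54). Bst2, whose product tethers budding virus, was at 666 and 863 CPM, a log2 ratio of 0.37 (0.18 to 0.57). Isg15, the ubiquitin-like modifier, was at 232 CPM in Ctrl and 449 CPM in dKO, a log2 ratio of 0.96 (0.67 to 1.24). The largest ratios were those of the RNA-binding effectors Ifit1 (72 and 52 UMIs, 52.6 and 156 CPM, log2 ratio 1.57) and Ifit3 (65 and 36 UMIs, 47.5 and 108 CPM, 1.18). At the other end stood Ifi35, at 78.2 and 59.9 CPM with a log2 ratio of -0.38 (-1.15 to 0.31), and Cmpk2, at 69.4 and 53.9 CPM with -0.36 (-1.18 to 0.37).

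Transcription factors of the response differed among themselves. Irf7, which amplifies interferon output, was at 106 CPM in Ctrl and 192 CPM in dKO, a log2 ratio of 0.86 (0.41 to 1.29). Stat2 was at 85.5 and 71.9 CPM, with an interval of -0.95 to 0.39.

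The difference was spread over cells. After thinning of each cell to 2000 UMIs, for which 35 Ctrl and 20 dKO cells were too shallow, the interferon list had a median of 10 UMIs in 217 Ctrl cells (quartiles 6 and 15, highest 83). In 62 dKO cells the median was 14 (quartiles 9.25 and 21, highest 54). The cell with most UMIs was in Ctrl, while the quartiles and the median were higher in dKO. The lipid list had medians of 49 and 46 UMIs.

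**Figure D4:**
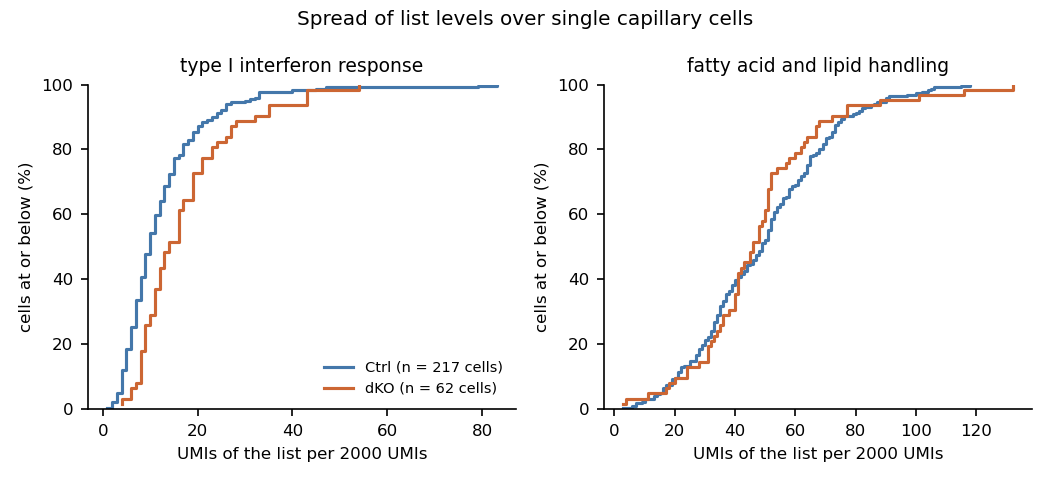
Cumulative share of capillary cells (percent, vertical) at or below a given number of UMIs of the type I interferon list (left) and of the fatty acid and lipid list (right), with each cell thinned to 2000 UMIs. The dKO curve of the interferon list lies to the right of Ctrl at the median (14 against 10 UMIs), while the lipid list curves cross.

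The promoters of the 4 interferon members with most UMIs that the RefSeq table (GRCm38.p6) holds are shown, since the list was higher as a group. Each runs from 250 bases before to 50 bases after a start that the table gives, the first one listed where a gene has several, and capitals mark matches, on either strand, to the core of the interferon-stimulated response element (GAAA repeated with a spacer of any 2 bases) and to TTCNNNGAA, the core of a STAT element, where neighbouring matches may overlap.
Ifitm3, chr7:141010695-141010994, minus strand: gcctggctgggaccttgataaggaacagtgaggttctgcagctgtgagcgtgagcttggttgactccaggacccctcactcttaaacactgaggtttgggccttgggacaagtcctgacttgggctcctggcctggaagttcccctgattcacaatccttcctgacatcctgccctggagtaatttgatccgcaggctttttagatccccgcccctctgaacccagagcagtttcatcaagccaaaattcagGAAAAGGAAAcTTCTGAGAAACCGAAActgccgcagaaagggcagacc
Bst2, chr8:71537423-71537722, minus strand: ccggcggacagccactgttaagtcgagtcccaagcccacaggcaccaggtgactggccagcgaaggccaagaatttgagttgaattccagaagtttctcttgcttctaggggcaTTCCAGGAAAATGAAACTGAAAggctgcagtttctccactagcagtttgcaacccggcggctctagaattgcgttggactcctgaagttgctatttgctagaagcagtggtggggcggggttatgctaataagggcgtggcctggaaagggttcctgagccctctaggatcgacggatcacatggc
Rsad2, chr12:26456403-26456702, minus strand: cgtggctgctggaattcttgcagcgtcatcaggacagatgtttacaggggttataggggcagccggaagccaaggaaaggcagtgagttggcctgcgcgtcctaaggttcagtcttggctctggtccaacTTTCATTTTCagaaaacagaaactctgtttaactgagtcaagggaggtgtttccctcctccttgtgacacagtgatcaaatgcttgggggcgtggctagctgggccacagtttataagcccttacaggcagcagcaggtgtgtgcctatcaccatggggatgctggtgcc
Ifi203, chr1:173942623-173942922, minus strand: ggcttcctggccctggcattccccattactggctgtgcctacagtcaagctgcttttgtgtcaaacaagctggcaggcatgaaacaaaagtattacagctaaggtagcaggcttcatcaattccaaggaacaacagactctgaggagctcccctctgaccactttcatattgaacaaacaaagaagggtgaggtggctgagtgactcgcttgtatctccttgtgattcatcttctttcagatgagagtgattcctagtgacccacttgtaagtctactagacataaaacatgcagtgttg
Ifitm3 held 2 matches of the interferon element and 1 of the STAT element, which lay after the start. In Bst2, overlapping matches of the interferon element began 130 and 124 bases before the start, next to a STAT match. Rsad2 held 1 match of the interferon element 120 bases before the start, and the window of Ifi203, 1 of 2 in the table, held 0 matches of either. Over the list, 12 of 23 members with a sequence in the table held the interferon element core, while 3.44% of all 32851 windows in the table did. For TTCNNNGAA these were 5 of 23 and 8.30%. In the lipid list, 1 of 13 members held the interferon core, and 0 held the core of a PPAR element (a direct repeat with a spacer of 1 base), which 0.0396% of all promoters held. A match of letters is a description and no measure of binding. Ifi27l2a and Fabp4 are not in the table.

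Genes that interferon-gamma induces were also higher in dKO as a sum, at 1585 CPM in Ctrl and 2516 CPM in dKO, a ratio of 1.59 (1.46 to 1.72). Of 20 members, 9 had 100 UMIs, and 8 of these had a ratio above 1, beside the 43% of all genes. Iigp1, an interferon-inducible GTPase, was at 272 CPM in Ctrl (372 UMIs in 117 cells) and 671 CPM in dKO (224 UMIs in 40 cells), a log2 ratio of 1.30 (1.06 to 1.55). Cxcl10, which attracts T cells, was at 29.2 CPM in Ctrl (40 UMIs in 18 cells) and 186 CPM in dKO (62 UMIs in 13 cells), a log2 ratio of 2.67 (2.07 to 3.28). Gbp9 was level, at 206 and 204 CPM, as was Gbp2, at 130 and 144 CPM. Irf1 was at 202 and 308 CPM, a log2 ratio of 0.61 (0.27 to 0.94). When cells with 1 capillary gene were included as well, the log2 ratio of Cxcl10 was 1.21.

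MHC class I genes shared this direction. The 18 genes of MHC class I and the immunoproteasome summed to 7824 CPM in Ctrl and 10102 CPM in dKO, a ratio of 1.29 (1.24 to 1.34). Of 14 measured members 11 were above 1, beside the 43% of all genes, and 0 were past 2-fold, beside 2.56% of all genes. B2m, the light chain, was at 2224 and 2740 CPM, a log2 ratio of 0.30 (0.19 to 0.41). The heavy chain H2-K1 was at 1682 and 2363 CPM (0.49, 0.37 to 0.61), and H2-D1 was at 1653 and 2270 CPM (0.46, 0.34 to 0.58). Heavy chains are near-identical copies that counting may not keep apart, which makes the share of each uncertain. The peptide transporter Tap1 was at 65.7 and 108 CPM, a log2 ratio of 0.71 (0.11 to 1.29), and the proteasome subunit Psmb10 was at 109 and 86.8 CPM (-0.33, -0.95 to 0.26). MHC class II genes were low, at 222 CPM in Ctrl and 153 CPM in dKO for all 7 genes, and 158 of the 304 Ctrl UMIs came from 1 cell.

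Adhesion molecules and chemokines formed another group with higher sums in dKO, 3288 CPM in Ctrl and 4555 CPM in dKO, a ratio of 1.39 (1.31 to 1.47). Of 19 members 8 had 100 UMIs, and 7 of these had a ratio above 1, beside the 43% of all genes. Cxcl12, which retains CXCR4-positive cells, was at 1270 and 1749 CPM, a log2 ratio of 0.46 (0.32 to 0.60). Icam1, the leukocyte adhesion receptor, was at 251 and 425 CPM (0.76, 0.47 to 1.05). The neutrophil attractant Cxcl1 was at 224 and 470 CPM (1.07, 0.78 to 1.35), and Cxcl2, a related attractant outside the list, was at 152 CPM in Ctrl (208 UMIs) and 716 CPM in dKO (239 UMIs, 76 of them in 1 cell), a log2 ratio of 2.24 (1.96 to 2.51). Ccl2 was at 68.7 and 132 CPM (0.94, 0.39 to 1.47). Ccl6, also outside the list, was at 53.3 and 141 CPM, in 14 Ctrl and 8 dKO cells, with 29 of its 73 Ctrl UMIs in 1 cell. In cells with Ptprc it was at 1188 and 1525 CPM. Kitl and Icam2 were level, at 881 and 904 CPM and at 213 and 213 CPM.

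Other cell classes of the same libraries gave the background for these sums. The ratio of the type I interferon list was 1.25 (1.20 to 1.32) in venous cells, 1.09 (0.981 to 1.21) in arterial cells, 1.94 (1.91 to 1.96) in cells with Pdgfra and 2.17 (2.15 to 2.19) in cells with Ptprc. The ratio was thus above 1 in each of these classes, with an interval that includes 1 in arterial cells. For the MHC class I list the ratio was 1.19 in venous, 1.03 in arterial, 1.62 in Pdgfra and 1.48 in Ptprc cells. For the interferon-gamma list it was 1.57 in venous, 0.928 in arterial, 1.63 in Pdgfra and 1.51 in Ptprc cells. The adhesion and chemokine list was at 1.41 in venous, 0.922 (0.822 to 1.03) in arterial, 1.31 in Pdgfra and 1.38 in Ptprc cells.

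**Figure D5:**
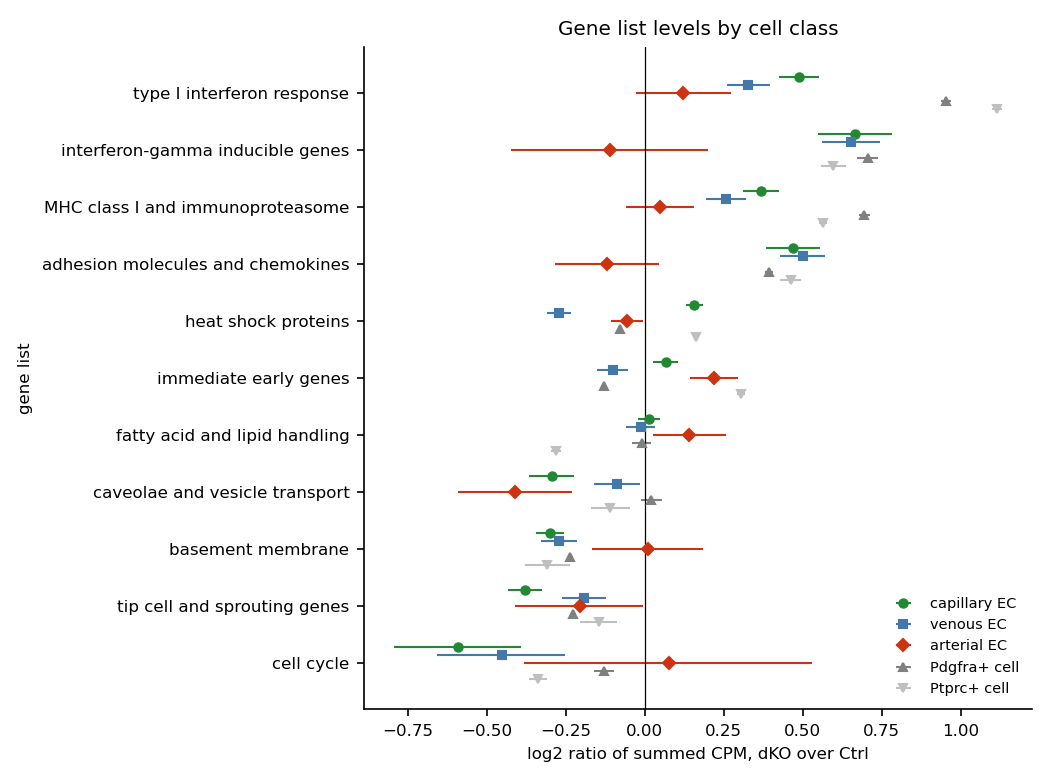
Log2 ratio of the summed CPM of 11 gene lists, dKO over Ctrl (horizontal), in capillary, venous and arterial endothelial cells (EC) and in cells with Pdgfra or Ptprc UMIs, with 95% counting intervals. In capillary cells the interferon list is at 0.49 and the tip cell list at -0.38, while the fatty acid list is at 0.01.

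Lipid genes, the signature of muscle capillaries, were level between the libraries. The 21 genes of fatty acid and lipid handling summed to 24448 CPM in Ctrl and 24701 CPM in dKO, a ratio of 1.01 (0.986 to 1.04), with 66.9% of the UMIs from Fabp4. Of 14 measured members, 6 had a ratio above 1 and 8 under 1, beside the 43% of all genes above 1. None was past 2-fold, beside 2.56% of all genes. The log2 ratio was 0.03 (-0.02 to 0.07) for Fabp4 and -0.13 (-0.24 to -0.02) for Cd36. Lpl, the lipase that GPIHBP1 binds, was at 888 and 1186 CPM (0.42, 0.25 to 0.58), and Apold1, an endothelial gene that responds to activity, was at 546 and 815 CPM (0.58, 0.37 to 0.78). At the lower end were the lipid droplet gene Plin2, at 108 and 62.9 CPM (-0.78, -1.52 to -0.12), and the nuclear receptor gene Pparg, at 76.7 and 56.9 CPM (-0.43, -1.22 to 0.28). Tcf15, a transcription factor that works with MEOX2 in fatty acid uptake, was at 438 and 326 CPM (-0.42, -0.73 to -0.13), and Meox2 was at 174 and 204 CPM (0.23, -0.18 to 0.62).

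Water and solute transporters summed to 3824 CPM in Ctrl and 4280 CPM in dKO, a ratio of 1.12 (1.05 to 1.19). The water channel Aqp1, which held 66.5% of these UMIs, was level at 2590 and 2656 CPM. Above it stood Slc3a2, a subunit of amino acid transporters, at 190 and 302 CPM (0.67, 0.33 to 1.01), and the nucleoside transporter Slc28a2, at 114 and 177 CPM (0.63, 0.18 to 1.07). Abcg2, an efflux pump, was at 170 and 159 CPM.

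Genes of caveolae, the membrane pits that are abundant in capillaries, had lower sums in dKO, 6901 CPM in Ctrl and 5630 CPM in dKO, a ratio of 0.816 (0.776 to 0.857). Cav1, which forms the coat, was at 2884 and 2028 CPM (-0.51, -0.63 to -0.39), and its partner Cav2 was at 387 and 255 CPM (-0.61, -0.95 to -0.27). The cavins were at 1567 and 1300 CPM (Cavin2, -0.27) and at 1012 and 806 CPM (Cavin1, -0.33). Plvap, the protein of fenestral diaphragms and a venous marker, went the other way, at 99.4 CPM in Ctrl (136 UMIs) and 359 CPM in dKO (120 UMIs), and 67 of the dKO UMIs came from 1 cell. Its log2 ratio was 1.85 (1.49 to 2.22), and 1.07 without the top cell of each library. Other venous genes outside the rule summed with Plvap to 1394 CPM in Ctrl and 1803 CPM in dKO.

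Genes of tip cells, the leading cells of vessel sprouts, were lower in dKO as a sum. The 20 genes gave 12198 CPM in Ctrl and 9383 CPM in dKO, a ratio of 0.769 (0.740 to 0.799). Of 14 measured members 11 were under 1 and 3 above, beside the 43% of all genes above 1. The median log2 ratio was -0.33, and 1 member was past 2-fold in each direction, Dll4 below and Plvap above. Dll4, the Notch ligand of tip and arterial cells on chromosome 2 (119325784 to 119335962), was at 123 CPM in Ctrl (168 UMIs in 100 cells) and 47.9 CPM in dKO (16 UMIs in 14 cells). The log2 ratio was -1.36 (-2.20 to -0.62). In cells thinned to 2000 UMIs, a Dll4 UMI was found in 51 of 217 from Ctrl (23.5%, exact binomial interval 18.03 to 29.7) and in 6 of 62 from dKO (9.68%, 3.63 to 19.9). The unthinned shares were 39.7% and 17.1%. Cells with Pdgfra, which should lack Dll4, had a UMI in 0 of 982 Ctrl and 0 of 1012 dKO thinned cells and in 0.198% and 0.193% of unthinned cells, at medians of 12864 and 12907.5 UMIs. Arterial cells showed Dll4 at 301 and 131 CPM.

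Of the other members of the sprouting list, Trp53i11 was at 197 and 105 CPM (-0.91, -1.46 to -0.40), and the peptide hormone gene Adm was at 102 and 65.9 CPM (-0.63, -1.35 to 0.02). Igfbp3 was at 151 and 171 CPM (0.17, -0.27 to 0.60). Most of the sum came from matrix genes that the basement membrane list also holds. Sparc was at 4927 and 3827 CPM (-0.36, -0.45 to -0.28), and Col4a1 and Col4a2, which form the collagen IV network, were at 3893 and 2737 CPM and at 1764 and 1237 CPM, both with a log2 ratio of -0.51. The basement membrane list gave 18676 CPM in Ctrl and 15172 CPM in dKO, a ratio of 0.812 (0.788 to 0.837). Of 15 measured members 11 were under 1 and 4 above, beside the 43% of all genes above 1. None was past 2-fold, beside 2.56% of all genes. Lamc1, a laminin chain, was at the low end, with a log2 ratio of -0.62 (-1.15 to -0.12), and Nid2 at the high end, with 0.12 (-0.56 to 0.76). The ratio of this list was 0.829 in venous, 1.01 (0.891 to 1.14) in arterial, 0.850 in Pdgfra and 0.808 in Ptprc cells. For the tip cell list it was 0.876 in venous, 0.867 in arterial, 0.854 in Pdgfra and 0.904 in Ptprc cells.

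Sums of receptors and regulators of vessel growth lay nearer to 1 than that of the tip cell list. The receptors of VEGF, angiopoietins and apelin gave a ratio of 0.893 (0.845 to 0.943), with Nrp1, the VEGF co-receptor, at 1585 and 1479 CPM and the phosphatase Ptprb at 1387 and 1144 CPM. Of 11 measured members 9 were under 1 and 2 above, beside the 43% of all genes above 1. The VEGF receptor genes Flt1 and Kdr had log2 ratios of 0.24 (0.11 to 0.36) and -0.24 (-0.42 to -0.06). Tek was at 174 and 240 CPM (0.46, 0.08 to 0.83), while Tie1 was at 356 and 261 CPM (-0.45, -0.80 to -0.12), and Pgf had the lowest log2 ratio, at -0.79 (-1.53 to -0.13). In the Notch pathway the sum was at a ratio of 0.927 (0.825 to 1.04), with Notch1 at 276 and 302 CPM and Hes1 at 274 and 201 CPM. Its 1 member past 2-fold was Dll4, with the log2 ratio of -1.36 given above. Notch4 and Hey1 had log2 ratios of -0.33 and -0.39 with intervals that include 0. BMP and TGF-beta genes were at 1.05 (0.999 to 1.11), with Id1 and Id3 at 0.33 and 0.21 on the log2 scale and Tgfbr3 at -0.76.

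Endothelial transcription factors summed to a ratio of 1.02 (0.976 to 1.07). Of 18 measured members 6 were above 1 and 12 under 1, beside the 43% of all genes above 1. Their median log2 ratio was -0.27, where all genes had -0.05. The flow-responsive factors Klf2 and Klf4 were at 1262 and 1743 CPM (0.47, 0.33 to 0.60) and at 844 and 1234 CPM (0.55, 0.38 to 0.71). Elk3 was at 302 and 180 CPM (-0.75, -1.17 to -0.36) and Sox18 at 137 and 83.9 CPM (-0.70, -1.33 to -0.13). Sox17 was at 520 and 650 CPM (0.32, 0.10 to 0.54). Cell junction genes gave a ratio of 0.896 (0.840 to 0.955), with the scaffold genes Afdn at 758 and 548 CPM and Tjp1 at 338 and 225 CPM.

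Immediate early genes and heat shock genes, which tissue digestion is known to induce, were high in both libraries. The 15 immediate early genes summed to 18065 CPM in Ctrl and 18921 CPM in dKO, a ratio of 1.05 (1.02 to 1.08). Jun was at 4149 and 3935 CPM and Jund at 2150 and 2096 CPM, while Socs3 had the highest log2 ratio (0.58, 0.34 to 0.81) and Nr4a1 the lowest (-0.44, -0.78 to -0.11). The 12 heat shock genes summed to 42028 CPM in Ctrl and 46884 CPM in dKO, a ratio of 1.12 (1.10 to 1.14). Hspa1b and Hspa1a, near-identical copies, were at 9801 and 10407 CPM and at 8923 and 9580 CPM. Hspe1 was at 580 and 880 CPM (0.60, 0.40 to 0.80), and Hsph1 had a ratio under 1, at 1158 and 824 CPM (-0.49, -0.68 to -0.31). The part of handling in the differences between the libraries was not tested.

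The list of glucocorticoid and metallothionein genes was at 3545 CPM in Ctrl and 4564 CPM in dKO, a ratio of 1.29 (1.21 to 1.36), and at 1.22 without the top cell of each library. Hmox1, outside this list, encodes the heme-degrading enzyme and was at 654 CPM in Ctrl (895 UMIs in 113 cells) and 1614 CPM in dKO (539 UMIs in 35 cells), a log2 ratio of 1.30 (1.15 to 1.46). It was 0.80 without the cells of the highest doublet scores and 0.62 in thinned cells. Mt1, a metal-binding metallothionein, was at 81.8 and 353 CPM (2.11, 1.73 to 2.50), and 1 dKO cell held 48 of its 118 UMIs. Mt2 was at 35.8 and 243 CPM (2.76, 2.23 to 3.30), with 62 of 81 dKO UMIs in that same cell and a log2 ratio of 0.99 without the top cells. Cdkn1a, the cell cycle inhibitor p21, was at 829 and 1279 CPM (0.63, 0.46 to 0.79) in 190 Ctrl and 67 dKO cells. Txnip was at 1422 and 1273 CPM (-0.16, -0.32 to -0.01). Suco, which is involved in collagen secretion, was at 54.1 and 129 CPM in 63 and 27 cells (1.25, 0.68 to 1.81).

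Vascular tone and clotting genes summed to 2087 CPM in Ctrl and 2558 CPM in dKO, a ratio of 1.23 (1.13 to 1.32). Entpd1, the ectonucleotidase CD39, was at 89.1 and 198 CPM (1.15, 0.69 to 1.59), Ace at 87.7 and 150 CPM (0.77, 0.27 to 1.26), and Edn1 at 111 and 74.9 CPM (-0.57, -1.24 to 0.05). Glycolysis genes were at a ratio of 1.06 (0.973 to 1.15), with Gapdh at 662 and 632 CPM. Cell cycle genes were low in both, at 1086 and 722 CPM for 20 genes, a ratio of 0.664 (0.577 to 0.762), and 4 had 100 UMIs. Stmn1 was at 93.5 and 50.9 CPM (-0.88, -1.70 to -0.14), and Pcna at 109 and 135 CPM (0.31, -0.21 to 0.80).

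Of the 15 genes with the lowest ratios, Pdgfrb and Abcc9 are known from mural cells, which wrap capillaries. Pdgfrb was at 71.6 CPM in Ctrl (98 UMIs in 16 cells) and 24.0 CPM in dKO (8 UMIs in 3 cells), and Abcc9 at 86.2 and 27.0 CPM (118 and 9 UMIs). Rgs5, a pericyte gene outside these 15, was at 1148 CPM in Ctrl (1571 UMIs) and 488 CPM in dKO (163 UMIs), a log2 ratio of -1.23 (-1.47 to -1). The mural list of 8 genes was at a ratio of 0.430 (0.370 to 0.496), a log2 ratio of -1.22, with a UMI in 93 Ctrl and 22 dKO cells. Without the 25% of cells with most markers of other cells its log2 ratio was 0.11. The mural genes are among those markers, so this move is partly built into the choice of cells. At least 3 of 6 mural genes (Rgs5, Pdgfrb, Notch3, Kcnj8, Abcc9 and Cspg4) were found in 16 Ctrl cells (6.35%) and 3 dKO cells (3.66%), which held 63.5% and 72.4% of the Rgs5 UMIs. These cells had medians of 7304 and 6805 UMIs, against 4033 and 2915 for the other capillary cells. Without them Rgs5 was at 464 and 143 CPM, and the interferon list had a log2 ratio of 0.47 and the tip cell list of -0.37 without them.

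At the low end also stood Spp1, the cytokine osteopontin, at 222 CPM in Ctrl (304 UMIs, 143 of them in 1 cell) and 5.99 CPM in dKO (2 UMIs), a log2 ratio of -5.21 (-8.26 to -3.35). Spp1 was at 2297 and 1262 CPM in cells with Ptprc. Aspn and Mgp, matrix genes of stromal and arterial cells, had 112 and 3 UMIs and 100 and 6 UMIs. The other low genes were found in more Ctrl cells. Gnb4, a G protein subunit, was at 134 CPM in Ctrl (183 UMIs in 84 cells) and 32.9 CPM in dKO (11 UMIs in 10 cells), a log2 ratio of -2.02 (-3.05 to -1.15). Vash1, an inhibitor of angiogenesis, was at 108 and 38.9 CPM (-1.47, -2.42 to -0.66), in 76 and 10 cells. Rnf144a was at 166 and 62.9 CPM (-1.40) and Filip1 at 107 and 35.9 CPM (-1.58). Mlec, Coro1c, Cables2 and Nrep had log2 ratios between -2.03 and -1.32 on 7 to 15 dKO UMIs each.

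Single cells held most of the UMIs of some genes with the highest ratios. In dKO 1 cell of 14401 UMIs held 84 of 101 Dcn UMIs and 43 of 64 Gsn UMIs, both genes of fibro-adipogenic progenitors (FAPs). It also held most Mt2 UMIs and was among the cells with the highest doublet scores. The FAP list of 8 genes was at 346 CPM in Ctrl and 877 CPM in dKO, a ratio of 2.54 (2.19 to 2.94), and at 0.911 without the top cell of each library. Gm13889 and Clu also had most or many of their dKO UMIs in 1 cell (59 of 84 and 44 of 92), in each case a cell of high doublet score. Single dKO cells held 126 of 139 myofibre UMIs, 56 of 57 neutrophil UMIs and all 33 erythroid UMIs. Lymphatic genes had 7 UMIs in Ctrl and 25 in dKO, 23 of these in 1 cell, and muscle stem cell genes 36 and 5. Macrophage genes were at 994 and 1057 CPM, 59.9% of their UMIs from Apoe, and pericyte and Schwann cell genes at 114 and 27.0 CPM.

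Against the other vessel classes of the same library, many genes set capillary cells apart in both libraries. This is a description, since the classes were chosen on expression. Of 1718 genes outside the rule at 100 CPM or more in the higher class in both libraries, 94 (5.47%) were 2-fold or more higher in capillary cells in both libraries and 109 (6.34%) were lower. The highest included Jup, a junction plaque protein, at 254 and 222 CPM in capillary cells and 32.6 and 16.8 CPM in venous cells. Lpl was at 888 and 1186 CPM against 110 and 177 CPM, and Id1, a target of BMP signalling, at 893 and 1123 CPM against 192 and 151 CPM. Tcf15, Kctd12b, Ednrb, Nes, Bambi-ps1, Ablim3 and Rgs5 completed the 10, with log2 differences of 2.18 or more in both libraries. For Rgs5 these were 2.64 and 3.30 without cells of 3 mural genes, and 2.32 and 1.94 without the highest doublet scores.

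Of the 10 genes lowest in capillary against venous cells, Vcam1 and Sele encode adhesion molecules of leukocyte entry, and Csf3 a cytokine. Vcam1 was at 4.38 and 24.0 CPM in capillary cells and at 527 and 953 CPM in venous cells, and Sele at 5.11 and 59.9 CPM against 1099 and 1239 CPM. Csf3 was at 16.8 and 29.9 CPM against 524 and 1158 CPM. Ehd3, Chp2, Tagln, Ctnnal1, Lbp, Bgn and Myof were the others, with log2 differences of -3.34 or lower.

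Against arterial cells, 136 of 1787 genes (7.61%) were 2-fold or more higher in capillary cells in both libraries and 191 (10.7%) lower. Col15a1, a capillary collagen, was at 499 and 356 CPM in capillary cells and at 5.68 and 8.74 CPM in arterial cells. Igfbp7 was at 3880 and 4079 CPM against 227 and 114 CPM, and Col4a2 at 1764 and 1237 CPM against 165 and 122 CPM. Cd300lg, Rgs5, Lyn, Fmo1, Lama4, Fmo2 and Phlda1 were the others. Without cells of 3 mural genes the log2 differences of Rgs5 were 6.35 in Ctrl and 2.45 in dKO, where it was at 7.66 and 4.22 with them. Ctrl arterial cells held 1 Rgs5 UMI, on which the value of 7.66 rests. The dKO arterial cells held 0, so that the dKO values are against a floor of 3 UMIs. The values of the 2 libraries are thus not on the same footing. Lower in capillary cells were Mgp, at 73.1 and 17.97 CPM against 9707 and 9460 CPM, and Igf2, at 33.6 and 27.0 CPM against 1120 and 742 CPM. Enpp6, Vcam1, Pthlh, Sdc1, Sulf1, Npnt, Avpi1 and Itgb4 completed the 10. The arterial sums came from 37 and 21 cells, so their levels are the least precise.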

How the data were processed

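The authors made the deposited UMI count matrices from droplet libraries with Cell Ranger, version 7.0.0 per the labels and 3.0.2 per the file headers, and the labels name mm10. They hold raw counts per gene and barcode, 45556596 in Ctrl and 33815155 in dKO, with 0 mitochondrial gene symbols, and 24458 of 24984 symbols matched the GRCm38 annotation.

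From these counts, UMIs were summed over the capillary cells of each library and divided by their total to give CPM, with Python 3.11.15, numpy 2.4.6 and scipy 1.17.1. Ratios are dKO over Ctrl with exact conditional binomial 95% intervals, CPM and shares have exact Poisson and binomial intervals, and all cover counting error only, while cells vary more than that. With 1 pooled library in each group, no test was possible. Genes with at least 100 UMIs entered counts of genes, and a ratio of 2 or of 0.5 was the threshold. The procedure was tested on simulated data. The genes named were the 15 at each end of the ratios, for each list the 2 members with most UMIs and the 2 at each end, the 10 at each end between vessel classes, genes of the rule and Yy1. Isg15, Irf7, Stat2, Irf1, Tie1, Hes1, Sox17, Icam1, Txnip, Meox2 and other genes beyond this rule were named after their values were seen. Some genes that the rule selects are not reported here. The cells and lists were chosen with earlier results of these data known. Lists share genes, such as Plvap in the caveolae, sprouting and venous lists and Sparc, Col4a1 and Col4a2 in the sprouting and basement membrane lists.

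Doublets were scored with Scrublet in scanpy 1.11.5. The 500-gene filter left 4335 of 4527 Ctrl and 3329 of 3483 dKO barcodes, the cell numbers that the study gives after its own filters and doublet removal, and whether doublets were removed before deposit is not known here. Scrublet's own threshold marked 4 and 14 cells, no cell was removed in the main values, and the top 7.5% of scores (325 and 250 cells, 13 and 11 of them capillary) were removed as an alternative. Other alternatives changed the minimum of genes or UMIs, the number of capillary genes, depth, scaling, and single cells or members. The removal of cells with 3 mural genes from the comparison between vessel classes was chosen after seeing the data.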

Additional observations from a re-analysis of the deposited data

Results flagged for a closer look

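Some lists had ratios in opposite directions in capillary and venous cells, and this difference was not tested, since each group is 1 library. The heat shock list had a log2 ratio of 0.16 in capillary cells and -0.27 in venous cells, and the immediate early genes had 0.067 and -0.10. The FAP list was at 1.34 in capillary and -1.04 in venous cells, and the myofibre list at 2.69 and -3.06. In dKO capillary cells, 200 of 293 FAP UMIs and 126 of 139 myofibre UMIs lay in 1 cell each. Without the top cell of each library the capillary ratios were 0.911 for the FAP list and 0.660 for the myofibre list, the latter on fewer than 100 UMIs. Both were thus under 1. The venous ratios, with no cell left out, were 0.487 and 0.120, the latter on 40 Ctrl and 2 dKO UMIs. Whether the classes differ beyond this was not tested.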

How the results depend on the processing

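Of 607 values under alternatives, 478 stayed within the counting interval of the reported value (for counts of genes, within 1.5 times), 122 moved, and 7 took the opposite sign to a reported value whose interval excluded 0. The lipid list, whose interval includes 0, is counted as moved where its sign turned, and values with fewer than 100 UMIs left are not counted. The interferon list kept a log2 ratio between 0.42 and 0.54 under all of its alternatives, 0.42 with 1 capillary gene allowed (0.49 as reported), and the sprouting list one between -0.41 and -0.27. MHC class I was at 0.43 with 3 capillary genes required. The capillary share differed by -11.6 points over endothelial cells and by -6.01 points over cells with 0 Ptprc UMIs. The 23 genes higher in dKO became 7 without the highest doublet scores, 3 in thinned cells, 8 without the 25% of cells with most markers of other cells, 56 at 50 UMIs and 1337 with 1 UMI in each library. The 49 lower genes became 9 in thinned cells, 196 at 50 UMIs and 1022 with 1 UMI. Fewer genes keep 100 UMIs once cells are removed or thinned, and other genes enter at lower thresholds. These counts are thus not shares of the 2812 genes.

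Without the highest doublet scores the log2 ratio was 0.13 for the lipid list, -0.31 for the sprouting list, 0.17 for immediate early genes, 0.23 for heat shock genes and -0.36 for the FAP list. Without the 25% of cells with most other markers these lists were, in the same order up to heat shock, at 0.068, -0.27, 0.24 and 0.26. The mural list, whose genes are among those markers, was at 0.11 (-1.22 as reported). With 3 capillary genes required the lipid list was at 0.055, heat shock genes at 0.13 and Gm13889 at -0.35. In thinned cells the lipid list was at -0.033 and heat shock genes at 0.29. Without cells of 3 mural genes immediate early genes were at 0.14 and heat shock genes at 0.20. With each cell weighted equally they were at 0.14 and 0.31, MHC class II at 0.40 and the neutrophil list at -0.16. Scaled to the median ratio, which moves every value by 0.05, the lipid list was at 0.068, immediate early genes at 0.12 and heat shock genes at 0.21. Without the cell with most of their UMIs the lipid list was at -0.055, immediate early genes at 0.016, heat shock genes at 0.13, MHC class II at 0.022 and the FAP list at -0.13, and the ratios of the myofibre and neutrophil lists, on fewer than 100 UMIs, turned from 6.48 to 0.660 and from 3.12 to 0.0660. Without Jun the immediate early genes were at 0.11. Apart from these constructions, the cause was not tested. For the 4 lists under 100 UMIs only the top cell was left out, which took the ratio of lymphatic genes from 14.6 to 2.71 and that of muscle stem cell genes from 0.569 to 0.140. No paired analysis was possible because each group has 1 library. Depth was limited in dKO, where 82 cells gave 333909 UMIs.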
